A study of Mus musculus with 4 samples.

Results

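Nr1i3 encodes CAR, the constitutive androstane receptor, and it lies on mouse chromosome 1 between Pcp4l1 and Tomm40l, with Sdhc beyond Pcp4l1 and Apoa2 and Fcer1g beyond Tomm40l. These 6 genes were described together because, in the comparison given here, Nr1i3 was far lower and its direct neighbours were higher, so that comparison chose the genes and their differences are given as a description with no p-value. All probe sets that the platform annotation gives to the 6 symbols were taken. There were 8 of 45037 probe sets, 2 each for Tomm40l and Sdhc and 1 each for Nr1i3, Pcp4l1, Apoa2 and Fcer1g. The levels come from liver RNA of C57BL/6 mice, either wild-type (WT) or Baf60a LKO, which lack Baf60a in the liver only. Smarcd1 encodes BAF60a, which belongs to the SWI/SNF complexes that move nucleosomes. Mice of both groups ate a high-fat diet for 10 weeks from 6 weeks of age and were fasted overnight before the liver was taken. Each group had 2 Affymetrix Mouse Genome 430 2.0 arrays, and each array carried its own pool of RNA. The sources used here give neither the number and sex of the mice in a pool nor the Cre line. Errors therefore rest on the spread between pools of mice, not between mice, and 4 arrays limit the precision. They are moderated standard errors of limma, which draws the variance of each probe set toward a value shared by all. An error can thus be larger or smaller than the pools of that probe set alone would give.

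CAR is a nuclear receptor of hepatocytes. It resides in the cytoplasm with heat shock proteins until drugs or other foreign compounds release it, and it then binds DNA with the retinoid X receptor and raises the transcription of cytochrome P450, conjugating enzyme and transporter genes. CAR also responds to endogenous signals such as fasting and bilirubin. The genes around it have unrelated products. Pcp4l1 encodes a small protein with an IQ motif, and Tomm40l a relative of the mitochondrial import channel TOM40. Sdhc encodes a membrane subunit of succinate dehydrogenase (respiratory complex II), Apoa2 a major apolipoprotein of high-density lipoprotein made by hepatocytes, and Fcer1g the signalling gamma chain shared by Fc receptors of myeloid cells.

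The stretches before the starts of Nr1i3 and Pcp4l1 are shown because these adjacent genes differed in opposite directions. Both are the 250 bases before the RefSeq start in build GRCm38.p6, read 5′ to 3′ on the gene's own strand. Nr1i3 lies on the plus strand, with its stretch at chr1:171213720-171213969. Pcp4l1 lies on the minus strand, with its stretch at chr1:171196269-171196518, so the starts face away from each other and are 17702 bases apart. Capitals mark a match to 1 of 4 motifs, the TATA box (TATAAA), the CCAAT box (CCAAT), the nuclear receptor half-site (AGGTCA) and the E-box (CACGTG), searched on both strands.
Nr1i3: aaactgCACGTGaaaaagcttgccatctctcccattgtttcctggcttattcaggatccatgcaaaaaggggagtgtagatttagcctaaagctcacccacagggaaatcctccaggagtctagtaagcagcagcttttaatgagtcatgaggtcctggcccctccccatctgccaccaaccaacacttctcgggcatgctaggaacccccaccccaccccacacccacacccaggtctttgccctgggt
Pcp4l1: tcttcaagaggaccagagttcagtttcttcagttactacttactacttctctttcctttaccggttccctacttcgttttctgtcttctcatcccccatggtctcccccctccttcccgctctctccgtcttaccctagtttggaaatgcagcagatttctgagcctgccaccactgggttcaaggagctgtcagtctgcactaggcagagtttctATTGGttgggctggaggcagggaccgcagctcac
The Nr1i3 stretch held 1 E-box, a palindrome, which begins 244 bases before the start, and none of the other 3 motifs. The Pcp4l1 stretch held 1 CCAAT box on the minus strand of the printed sequence, which begins 34 bases before the start, and no other motif. Of all 32851 RefSeq stretches of this length, 6.02% held an E-box, 33.8% a CCAAT box, 12.4% a TATA box and 14.0% a half-site. RefSeq stretches were at hand for 4 of the 6 genes. That of Fcer1g held none of the motifs, and the 2 of Apoa2 each held a CCAAT box, beside a TATA box in the one and a half-site in the other. These matches describe the letters only.

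The arrays had medians of 4.19 to 4.27 on the log2 scale. WT replicate 1 stood apart. Its values correlated with those of the other arrays at 0.987 to 0.991 across all probe sets (a description, as probe sets are not replicates), and the other pairs at 0.993 to 0.996. The 27 probe sets for bacterial transcripts, a gauge of background, lay at 2.27 to 2.33 in the median and at 2.63 to 2.86 in the 95th percentile. On its brightest probe set the targeted gene Smarcd1 read 5.62 and 5.88 in WT and 5.34 and 5.30 in Baf60a LKO. The difference was -0.43 ± 0.14 (limma adjusted p = 0.410). Whether that probe set lies in the deleted part is not known, so it does not check the genotype. The 7 measured hepatocyte markers had means of 12.93 to 12.99 on the 4 arrays, so hepatocyte transcripts were present. The adipocyte markers Adipoq and Lep lay at 2.35 to 2.72.

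Nr1i3 was high in WT livers and low in Baf60a LKO livers. Its log2 value was 11.21 in WT replicate 1, 11.26 in WT replicate 2, 6.33 in Baf60a LKO replicate 1 and 6.58 in Baf60a LKO replicate 2. The groups were far apart, and the Baf60a LKO values remained well above the bacterial probe sets. The difference of Baf60a LKO minus WT was -4.77 ± 0.14 (log2, standard error of the limma fit, 2 arrays per group), a level 27.3-fold lower. The WT pools differed by 0.050 and the Baf60a LKO pools by 0.25. The probe set carries the suffix _a_at, which Affymetrix gives to sets that read several transcripts of 1 gene, so the value does not tell the transcript forms of Nr1i3 apart. By the size of the difference Nr1i3 had rank 5 among all probe sets.

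Pcp4l1, the gene beside Nr1i3 on the one side, was higher in Baf60a LKO livers. It read 6.74 and 7.22 in WT replicates 1 and 2, and 9.53 and 9.64 in Baf60a LKO replicates 1 and 2. The lowest Baf60a LKO array lay far above the highest WT array. The difference was 2.61 ± 0.19 (log2, limma standard error, 2 arrays per group), or 6.11-fold. The WT pools differed by 0.49, with WT replicate 1 the lower, and the Baf60a LKO pools by 0.11.

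Tomm40l, the gene on the other side, was higher on both of its probe sets. On the brighter set it read 6.72 and 6.81 in WT and 8.77 and 8.67 in Baf60a LKO, a difference of 1.95 ± 0.13 or 3.87-fold. On the dimmer set it read 3.92 and 4.10 in WT and 6.92 and 6.93 in Baf60a LKO, a difference of 2.91 ± 0.13 or 7.53-fold. Neither probe set had overlapping groups. The direction was shared and the size was not, since the differences lay 0.96 apart on the log2 scale. The WT values of the dimmer set lay near the array median. Which stretch of the transcript each set reads is not known here, and overlap of its probes with those of Nr1i3 was not checked.

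**Figure D1:**
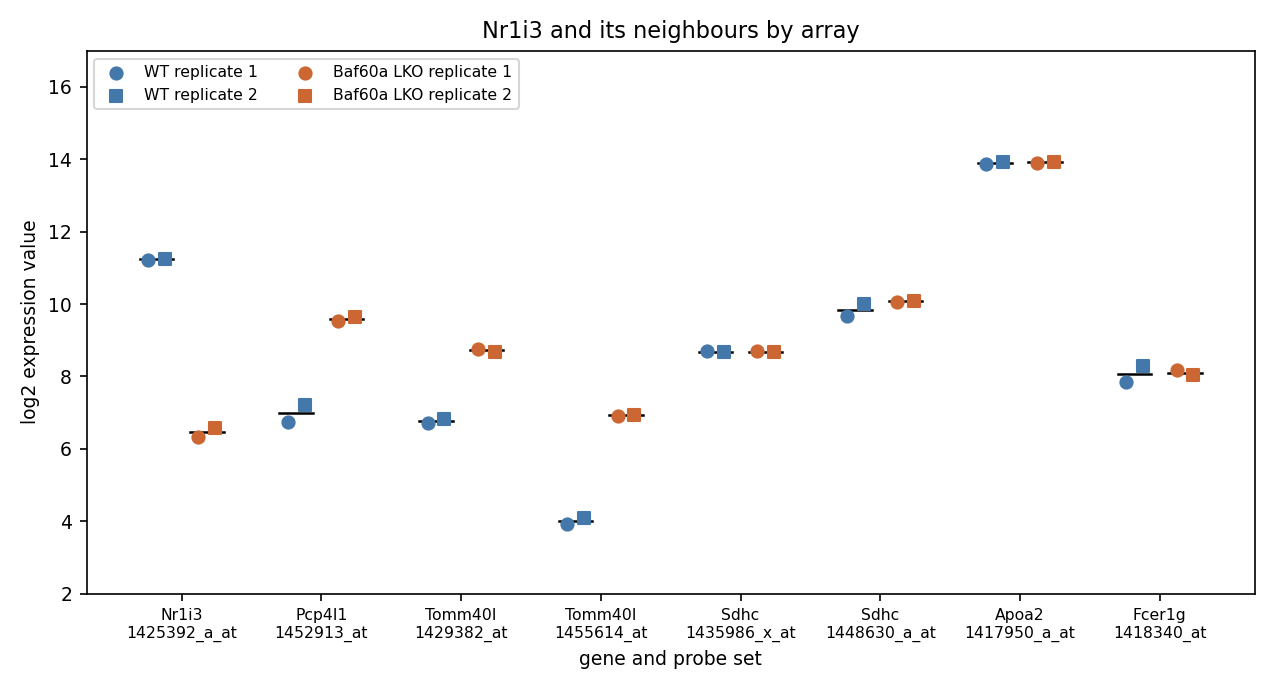
Log2 expression value (vertical axis) on each of the 4 arrays for the 8 probe sets of the 6 genes (horizontal axis). Blue marks WT, orange Baf60a LKO, circles replicate 1, squares replicate 2, and black lines the group means. Nr1i3 stands at 11.21 and 11.26 in WT against 6.33 and 6.58 in Baf60a LKO, while Pcp4l1 and both sets of Tomm40l stand higher in Baf60a LKO and the sets of Sdhc, Apoa2 and Fcer1g lie close together.

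The genes one step further out differed little. Sdhc had 2 probe sets. On the dimmer, an _x_at set, it read 8.70 and 8.67 in WT and 8.70 and 8.66 in Baf60a LKO, and the 4 arrays lay within a narrow band with a difference of -0.0021 ± 0.12. On the brighter, an _a_at set, it read 9.66 and 10.01 in WT and 10.06 and 10.10 in Baf60a LKO. Here WT replicate 1 was the low array and the other 3 lay together, and the difference of 0.24 ± 0.16 became 0.063 without WT replicate 1. The suffix _x_at marks sets whose probes can also bind other transcripts.

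Apoa2 read 13.86 and 13.92 in WT and 13.89 and 13.94 in Baf60a LKO, among the highest values on these arrays, with overlapping groups and a difference of 0.024 ± 0.12. Fcer1g read 7.84 and 8.28 in WT and 8.18 and 8.03 in Baf60a LKO. The WT arrays bracketed the Baf60a LKO arrays, and the difference was 0.041 ± 0.18. Its sign turned with the array left out, from -0.18 without WT replicate 1 to 0.26 without WT replicate 2, and it was below 0 after quantile or loess normalization.

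In 5 of the 8 probe sets the groups did not overlap, 4 higher in Baf60a LKO and 1 lower. Over all probe sets, 19.7% lay higher without overlap and 19.4% lower, while 0.187% passed the limma threshold (Benjamini-Hochberg adjusted p under 0.05), 0.0666% higher and 0.120% lower. With 2 arrays a group, values without overlap are frequent. The probe sets were chosen on this comparison, so nothing is read from the 5.

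The wider neighbourhood was read from the 15 measured protein-coding genes on either side of Nr1i3 in RefSeq order, which extend from Uap1 to F11r. Outside the 6 genes, none of the 25 others passed the test (limma on 18193 genes, 1 probe set each, Benjamini-Hochberg adjusted p under 0.05), and 5 had an unadjusted p under 0.05, beside 10.2% of all genes, the share against which each such count below is to be read. Over all genes 0.484% passed, 0.236% higher and 0.247% lower. Of the 25, 16 were higher and 9 lower, with a median of 0.12 (log2) beside a median of 0.00 over all genes. In 11 the groups did not overlap with Baf60a LKO higher, and in 4 with Baf60a LKO lower, beside 22.8% and 19.6% over all genes.

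Of the 25, Uap1, F11r and Olfml2b differed most. Uap1, an enzyme of UDP-N-acetylglucosamine synthesis, read 6.99 and 7.31 in WT and 7.67 and 7.77 in Baf60a LKO, a difference of 0.57 ± 0.15 (limma adjusted p = 0.325). F11r, which encodes the tight junction protein JAM-A, read 9.43 and 9.49 in WT and 9.88 and 9.96 in Baf60a LKO, a difference of 0.46 ± 0.12 (limma adjusted p = 0.300), and 0.22 with its probe sets averaged. Olfml2b, an extracellular matrix gene, read 4.48 and 4.28 in WT and 4.14 and 3.76 in Baf60a LKO, a difference of -0.43 ± 0.17 (limma adjusted p = 0.490), and -0.24 without Baf60a LKO replicate 2. All 3 had groups without overlap and sizes far below those of Pcp4l1 and Tomm40l.

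**Figure D2:**
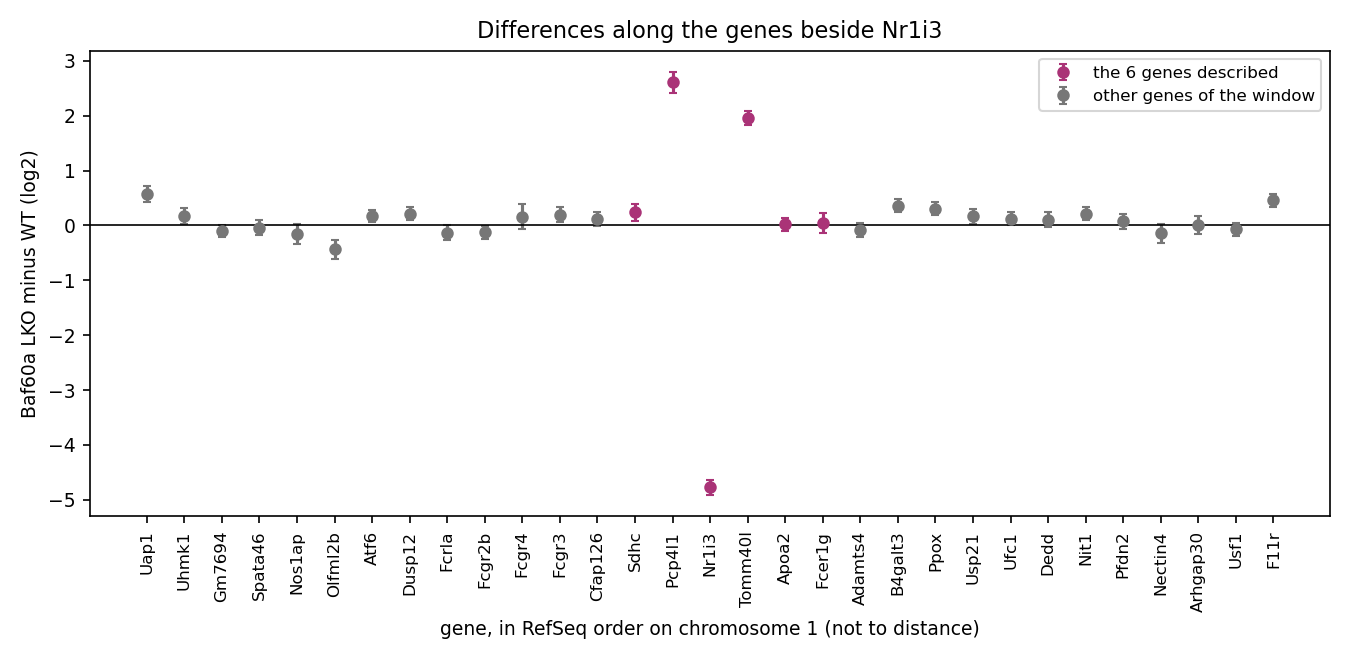
Difference of Baf60a LKO minus WT (log2, vertical axis) with its limma standard error for Nr1i3 and the 15 measured protein-coding genes on either side, in RefSeq order on chromosome 1 (horizontal axis, not to distance). The 6 genes described are purple and the other 25 grey, which lie between -0.43 and 0.57, while Nr1i3 lies at -4.77, Pcp4l1 at 2.61 and Tomm40l at 1.95.

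Within this window the order of differences was 0.24 for Sdhc, 2.61 for Pcp4l1, -4.77 for Nr1i3, 1.95 for Tomm40l, 0.024 for Apoa2 and 0.041 for Fcer1g, each on the gene's brightest probe set. Among 16451 pairs of adjacent measured protein-coding genes on all chromosomes, 6 pairs that hold none of these 6 genes had both genes past the limma threshold, and in all 6 both went the same way and belonged to 1 family (Cyp2c, Mup, Cyp4a or Saa genes). Transcripts within such a family are alike, so probes can be shared and the calls of a pair need not be separate readings. The pairs of Nr1i3 with Pcp4l1 and with Tomm40l were not counted, since the opposite pattern chose them. On the rest of chromosome 1, 6 of 970 genes passed (0.619%), 4 higher and 2 lower.

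Of the genes that CAR is known to switch on, the uptake carrier Slco1a4, the exporter Abcc3 and 3 Cyp2c genes fell in Baf60a LKO livers, and most did not pass the test. Of 40 genes listed as CAR targets, 32 had a value. Of these 5 fell, 0 rose and 27 did not pass (limma, Benjamini-Hochberg over 18193 genes), beside 0.247% of all genes that passed lower. In all, 26 were lower and 6 higher, with a median of -0.65 beside 0.00 over all genes. In 22 the groups did not overlap with Baf60a LKO lower, and in 3 with Baf60a LKO higher, beside 19.6% and 22.8% over all genes. The list was written with earlier results of these data known, so its direction is not independent evidence.

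Slco1a4, which encodes an organic anion uptake carrier, read 8.36 and 8.14 in WT and 4.38 and 4.62 in Baf60a LKO, and so fell 13.4-fold (-3.75 ± 0.15, limma adjusted p = 0.00145). Of the cytochrome P450 genes, Cyp2c50 fell 13.9-fold, Cyp2c54 12.9-fold and Cyp2c37 12.6-fold (limma adjusted p of 0.0116, 0.00373 and 0.0220), from WT values of 10.87 to 11.84 to Baf60a LKO values of 6.95 to 8.36. Their transcripts are alike, so probes can be shared among them. In each of these P450 genes Baf60a LKO replicate 1 was the lower of its group, as it was for Nr1i3. Most listed genes had this order, and the mean of the list was 7.88 in Baf60a LKO replicate 1 and 8.19 in replicate 2. A minority, among them Cyp2c55, Cyp2b10 and Abcc4 (picked after their values were seen), had Baf60a LKO replicate 2 lower. The share of all genes with either order was not counted, so nothing is read from the order. Abcc3, a basolateral exporter of bile salts and conjugates, read 11.49 and 11.46 in WT and 10.39 and 10.52 in Baf60a LKO, and fell 2.02-fold (-1.02 ± 0.12, limma adjusted p = 0.0444, and 0.147 with a replicate block).

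Other members, chosen after their values were seen, show how uneven the list was. Cyp2b10, the P450 gene most often used to read CAR activation, was dim in all arrays, at 3.74 and 3.12 in WT and 3.65 and 3.34 in Baf60a LKO, with overlapping groups. Cyp2b9 had a large difference of -4.34 ± 0.68 that did not pass (limma adjusted p = 0.113). Its WT pools stood 1.68 apart, at 10.91 and 9.22, and its Baf60a LKO pools 1.45 apart. Ephx1 and Aldh1a1, an epoxide hydrolase and a retinal dehydrogenase, differed by 0.013 ± 0.12 and -0.016 ± 0.12. The 5 calls depended on the arrays, with 0 when either WT array was left out, 3 when Baf60a LKO replicate 1 was and 5 when Baf60a LKO replicate 2 was. A fit on 3 arrays also has fewer degrees of freedom. Without the WT replicates Slco1a4 still differed by -3.64 and -3.86.

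**Figure D3:**
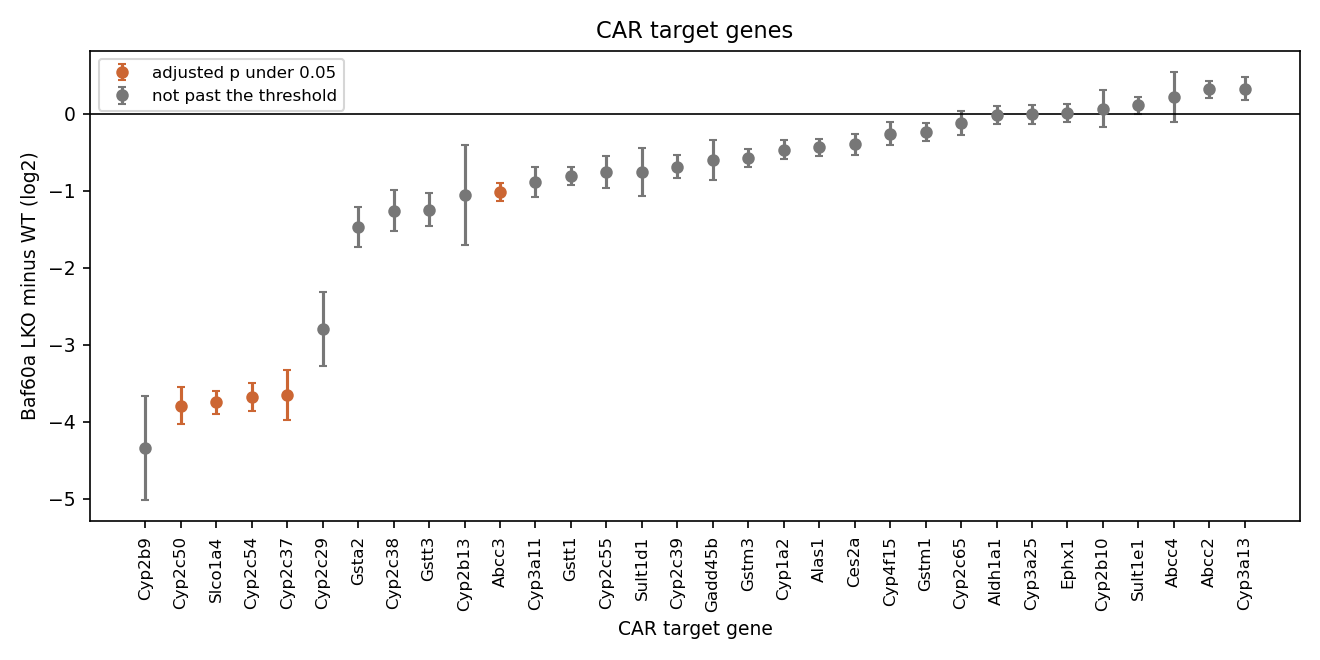
Difference of Baf60a LKO minus WT (log2, vertical axis) with its limma standard error for the 32 measured CAR target genes (horizontal axis), in order of the difference. Orange marks the 5 genes that passed, from Cyp2c50 at -3.79 to Abcc3 at -1.02, and grey the 27 that did not, from Cyp2b9 at -4.34 to Cyp3a13 at 0.33.

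Genes of proteins that work with CAR or control its gene differed by 0.45 or less. Of 28 listed genes (partners, co-regulators, cytoplasmic retention and upstream receptors), 24 had a value, 0 passed by limma and 1 had an unadjusted p under 0.05. Their median was 0.05, 16 were higher and 8 lower. The largest difference was that of Hsp90aa1, a chaperone that holds CAR in the cytoplasm, which read 10.31 and 10.68 in WT and 10.86 and 11.03 in Baf60a LKO (0.45 ± 0.17, limma adjusted p = 0.470). Ppargc1a, a coactivator raised by fasting, differed by 0.31 ± 0.16 (limma adjusted p = 0.562). Without WT replicate 1 Hsp90aa1 was at 0.26 and Ppargc1a at 0.15, and without WT replicate 2 Ppargc1a was at 0.47. With averaged probe sets Hsp90aa1 was at 0.20. Rxra, the main binding partner of CAR in liver, read 9.96 and 9.98 in WT and 9.74 and 9.63 in Baf60a LKO, a difference of -0.29 ± 0.12 (limma adjusted p = 0.492).

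The genes whose 4 values followed Nr1i3 most closely were found by Euclidean distance after each gene's mean was subtracted, over 4 arrays and 18193 genes. They were the steroid dehydrogenase gene Hsd17b6 (distance 0.21), the urinary protein gene Mup10 (0.23), the adipokine gene Serpina12 (0.40), Cyp2c50 (1.04) and Slco1a4 (1.04). Hsd17b6 read 10.42 and 10.73 in WT and 5.58 and 5.97 in Baf60a LKO. For Pcp4l1 the nearest were the acute phase genes Saa2 (0.47) and Saa1 (0.57), Calml4, of a calmodulin-like protein (0.56), Arhgef16, of a guanine nucleotide exchange factor (0.64), and Csad, of an enzyme of taurine synthesis (0.70). Saa2 read 9.10 and 9.57 in WT and 11.73 and 12.46 in Baf60a LKO. The distance mostly ranks genes by the size of the difference, since the groups dominate 4 values.

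None of the partners of the neighbours' products passed the test. Of 5 measured TOM complex genes, 3 were higher and 2 lower, with a median of 0.08 and 0 at an unadjusted p under 0.05 (limma). The largest differences were 0.25 ± 0.18 for the import receptor gene Tomm20, 0.15 ± 0.15 for Tomm70a and -0.12 ± 0.12 for Tomm7. Without WT replicate 1 Tomm20 was at 0.060 and Tomm70a at -0.015, and without Baf60a LKO replicate 2 Tomm20 was at 0.10. Tomm40, the channel gene that Tomm40l resembles (picked after its values were seen), read 8.62 and 8.41 in WT and 8.57 and 8.62 in Baf60a LKO, with overlapping groups. Pcp4, the closest relative of Pcp4l1, was dim, at 3.80 and 3.62 in WT and 3.27 and 3.36 in Baf60a LKO (-0.39 ± 0.13, limma adjusted p = 0.417). The other 2 measured genes of that list, Nrgn and Gap43, differed by -0.20 ± 0.15 and -0.023 ± 0.12. Nrgn was at -0.041 without WT replicate 1, and Gap43 was above 0 after each of 3 other normalizations. In this list 1 of 3 had an unadjusted p under 0.05.

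The other 7 complex II genes listed beside Sdhc comprised subunits and assembly factors. Of these 4 were higher and 3 lower, 0 passed by limma and 1 had an unadjusted p under 0.05. The 3 largest differences were those of the assembly factors Sdhaf3 (0.31 ± 0.21), Sdhaf4 (0.31 ± 0.11) and Sdhaf1 (0.27 ± 0.17). Without WT replicate 1 Sdhaf3 was at 0.027 and Sdhaf1 at 0.055, and without WT replicate 2 at 0.60 and 0.48. The values of Sdhaf4 were 8.61 and 8.65 in WT and 8.91 and 8.97 in Baf60a LKO. Of 12 measured genes of high-density lipoprotein listed beside Apoa2, 8 were higher and 4 lower, 0 passed by limma and 3 had an unadjusted p under 0.05 (10.2% of all genes did). Apoc2, the cofactor of lipoprotein lipase, read 11.76 and 11.61 in WT and 12.54 and 12.42 in Baf60a LKO (0.79 ± 0.13, limma adjusted p = 0.116). Apom, a carrier of sphingosine 1-phosphate, read 11.53 and 11.52 in WT and 12.16 and 12.06 in Baf60a LKO (0.58 ± 0.12, limma adjusted p = 0.187). Pltp, the phospholipid transfer protein gene, differed by -0.46 ± 0.19 (limma adjusted p = 0.490), and by -0.23 without WT replicate 2.

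Fcer1g and the mean of the macrophage markers had the same order over the arrays, and that order crossed the genotypes. The order of Fcer1g was WT replicate 1, Baf60a LKO replicate 2, Baf60a LKO replicate 1 and WT replicate 2, from 7.84 up to 8.28. The mean of 10 Kupffer cell and macrophage markers had the same order, at 8.27, 8.56, 8.62 and 8.72. The mean of 8 Fc receptor genes and their signalling partners had it too, at 6.37, 6.48, 6.53 and 6.57. Of the single genes, 4 of the 10 macrophage markers (Adgre1, Lyz2, Marco and Timd4) and 2 of the 8 Fc receptor genes (Fcgr4 and Tyrobp) had this order. WT replicate 1 was the lowest array in 8 of the 10 and 4 of the 8. The share of all genes with either pattern was not counted. WT replicate 1 was also lowest in the means of the complex II (9.16), TOM complex (9.30), high-density lipoprotein (11.82) and CAR pathway (8.06) genes. It was highest in those of the CAR target, calmodulin and stellate lists, among others. The lowest place was thus shared with other lists, but not the size of the step. The next array stood at 9.29 for complex II, 9.37 for the TOM complex, 11.87 for high-density lipoprotein and 8.15 for CAR pathway genes. These steps were smaller than that of the macrophage markers, from 8.27 to 8.56. The neutrophil and mast cell markers had a step of similar size, from 4.38 to 4.67. The mean of the hepatocyte markers had another order. With 4 arrays no correlation is given, and fewer cells of a type and less RNA per cell cannot be told apart in such bulk samples. WT replicate 1 also stood apart across all probe sets, and the part of that in this order was not tested.

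Within these lists the members were not uniform. Of the 10 macrophage markers 6 were higher and 4 lower in Baf60a LKO, 0 passed by limma, and 1, the scavenger receptor gene Cd163 (0.54 ± 0.18, limma adjusted p = 0.432, and 0.30 without WT replicate 1), had an unadjusted p under 0.05. The receptors Timd4 and Marco, which were 0.28 and 0.16 higher, were lower without WT replicate 1 (-0.17 and -0.34). Of the 8 Fc receptor genes 5 were higher and 3 lower, 0 passed by limma and 1 had an unadjusted p under 0.05. The largest differences were those of the kinase gene Syk (-0.37 ± 0.12, limma adjusted p = 0.417), Fcgr1 (0.26 ± 0.14, adjusted p = 0.566) and Fcgr3 (0.20 ± 0.13, adjusted p = 0.628). With averaged probe sets Syk was at -0.034 and Fcgr1 at 0.037, and without WT replicate 1 Fcgr1 was at 0.16 and Fcgr3 at 0.083. Of genes picked after their values were seen, Fcer1a, the alpha chain of the IgE receptor in which Fcer1g also serves, lay near the bacterial probe sets, at 2.31 to 2.57. The mast cell gene Cpa3, also picked afterwards, lay at 2.98 to 3.06, a little above their 95th percentiles of 2.63 to 2.86.

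**Figure D4:**
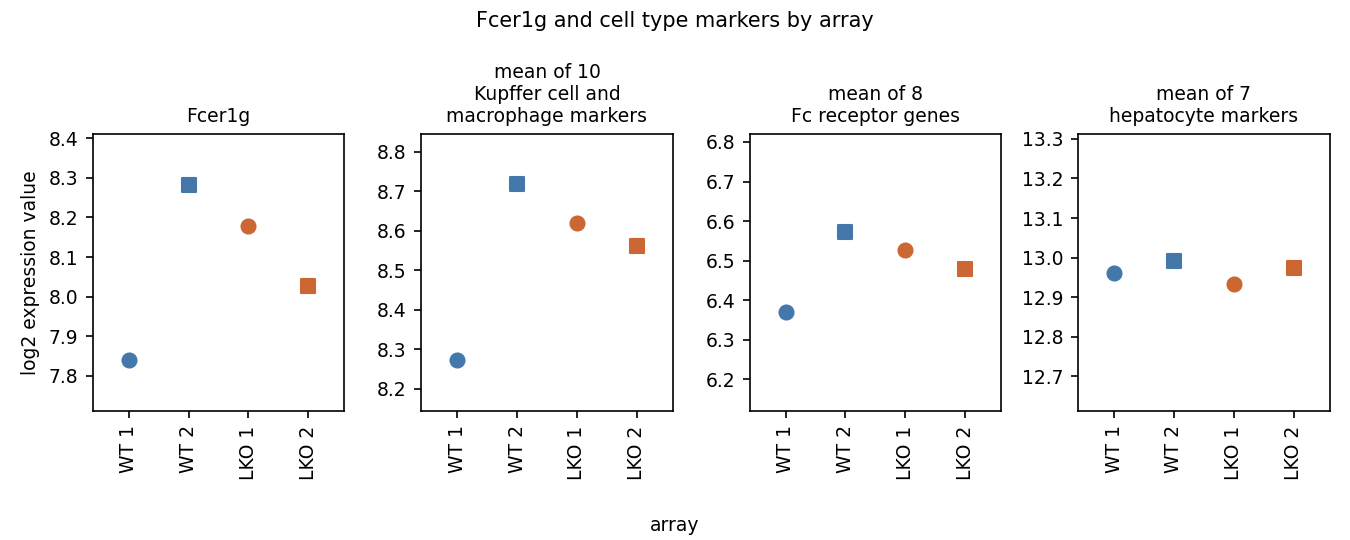
Log2 expression value (vertical axes, of equal span) on the 4 arrays (horizontal axes) for Fcer1g and for the mean of 10 Kupffer cell and macrophage markers, 8 Fc receptor genes and 7 hepatocyte markers. Blue marks WT and orange Baf60a LKO. WT replicate 1 is lowest and WT replicate 2 highest in the first 3 panels, with Fcer1g from 7.84 to 8.28.

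The mean levels of cholangiocyte markers and of neutrophil and mast cell markers were higher in Baf60a LKO, though no single marker passed. The mean of the 4 measured cholangiocyte markers was 4.02 and 4.20 in WT and 4.51 and 4.90 in Baf60a LKO, and all 4 were higher without overlap, beside 22.8% of all genes. Epcam differed by 1.17 ± 0.21, Krt7 by 0.45 ± 0.22 and Krt19 by 0.39 ± 0.13, 0 of the 4 passed by limma and 2 had an unadjusted p under 0.05 (10.2% of all genes did). With averaged probe sets Epcam was at 0.40, and without Baf60a LKO replicate 2 Krt7 was at 0.15. The mean of 4 neutrophil and mast cell markers was 4.38 and 4.67 in WT and 4.87 and 5.05 in Baf60a LKO, with 0 passing by limma and 0 at an unadjusted p under 0.05. The neutrophil genes S100a8 (0.89 ± 0.36) and S100a9 (0.64 ± 0.32) carried that mean, and without WT replicate 1 they were at 0.40 and 0.18. Of the mast cell genes, Cpa3 was equal between groups and Ms4a2 differed by 0.21 ± 0.27, and by -0.15 without WT replicate 2. The part of these cells in the levels of Pcp4l1 and Tomm40l was not tested. The means of lymphocyte (4.10 to 4.30), endothelial (7.88 to 8.07) and stellate cell markers (7.65 to 7.78) differed less between groups, as did Sox10 (4.64 to 5.03), the 1 measured Schwann cell marker. In these 3 lists and among the 7 hepatocyte and 2 adipocyte markers, 0 passed by limma and 0 had an unadjusted p under 0.05.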

How the data were processed

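Liver RNA of WT and Baf60a LKO mice was hybridised to 4 arrays, 2 per group, grouped by the genotype in the titles. The deposited values are log2 expression, judged by their range. For their making, the submitters' processing notes name RMA, affy and limma, with no versions, and no source used here names a genome build. RMA corrects background, normalizes by quantiles and summarises probes, and it compresses differences at low levels.

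The table held 45101 probe sets, and its 64 controls were set aside. Of the rest, 34945 had 1 gene symbol, 932 several and 9160 none. Symbols were set against RefSeq (GRCm38.p6) by Entrez number, with 34741 matched. A gene was represented by its brightest probe set (18193 genes), with no filter. RefSeq served for names, gene order and the promoter sequences. The motifs were chosen after the sequences were seen.

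The test was that of limma 3.58.1 under R 4.3.3 (lmFit, eBayes, 2-sided, Benjamini-Hochberg), on all probe sets and on genes, with 2 residual degrees of freedom. The shared variance added 3.74 prior degrees of freedom for probe sets and 3.54 for genes, so it weighed more than the 4 arrays of a gene. On simulated data for Baf60a LKO minus WT over 18193 genes, 52.2% of changes of 1 (log2), 91.0% of 2 and 100% of 4 were recovered, and 7 of 169 calls were false. Over 45037 probe sets the shares were 14.9%, 85.1% and 98.5%, with 8 of 140 calls false. Figures were drawn with matplotlib 3.10.9.

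The 6 genes, the 16 gene lists (133 of 159 genes with a value) and the tests were chosen with earlier results of these data known. Named genes were the 6, up to 8 that passed in a list or window, otherwise the 3 largest differences, and the 5 most like Nr1i3 and Pcp4l1. Other genes of the lists were picked afterwards, including those named for their order over the arrays, and not all of them are marked so. Alternatives were 3 normalizations, the brighter 50%, a trended robust eBayes, a replicate block, averaged probe sets, no _x_at or _s_at sets, and leaving out each array. A lone array left in a group is assumed to vary like the other group.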

Additional observations from a re-analysis of the deposited data

How the results depend on the processing

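Nr1i3, Pcp4l1 and Tomm40l kept their directions. Under the 3 other normalizations, the replicate block and each array left out, Nr1i3 lay between -4.90 and -4.65, Pcp4l1 between 2.37 and 2.85, and Tomm40l between 1.86 and 2.00 on one probe set and at 2.82 or above on the other. Sdhc on its _x_at set (-0.084 to 0.031), Apoa2 (-0.0048 to 0.057) and Fcer1g (-0.18 to 0.26) took both signs, and Sdhc on its _a_at set lay between 0.063 and 0.42.

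The number of calls moved. Of 45037 probe sets 84 passed (30 higher, 54 lower), 139 after quantile normalization (67 and 72), 162 after cyclic loess (79 and 83), 146 with array medians subtracted (78 and 68) and 173 with a trended and robust eBayes (74 and 99). Of genes 88 passed (43 higher, 45 lower), 142 after cyclic loess (72 and 70), 154 with array medians subtracted (91 and 63) and 216 with a trended and robust eBayes (118 and 98). With a replicate block 4 probe sets and 19 genes passed. Same-numbered arrays deviated from their group means with a correlation of 0.15, which with 2 arrays per group is a single value, and nothing in the labels ties the numbers together. Without 1 array 0 probe sets passed in each case, and 0 to 17 genes. The CAR target count was 5, then 9 with array medians subtracted, 13 with a trended and robust eBayes and 0 to 5 without 1 array, all of them lower in Baf60a LKO. The counts of 0 for the other 25 genes of the window and for the 24 CAR pathway proteins stayed at 0 by limma under each alternative that kept all arrays. The brighter 50% held only 19 of the 25 and 22 of the 24. Fits without 1 array are left out of this statement, as few genes passed there. Apoc2 passed with array medians subtracted (limma adjusted p = 0.0492) and, like Apom, with a trended and robust eBayes. The arrays give no read depth, and values near 2 to 3 do not stand clear of background.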
